A study of Mus musculus with 45 samples.

Results

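Integrin genes were followed across a panel of mouse mammary tumour cell lines, namely Itga2, Itga3, Itga5, Itga6, Itgav, Itgb1, Itgb3, Itgb4, Itgb5 and Itgb6. They were taken by symbol from the deposited table, in which all 10 were found among 28454 listed genes. Polyadenylated RNA was sequenced in 45 libraries, 3 cultures for each of 15 combinations of line and medium. Every line descends from mammary tumours driven by a Myc transgene under the mouse mammary tumour virus promoter, so all the groups compared share that oncogene. The lines of the MYAZ subtype, established from such tumours, are MYAZ6.6g, MYAZ12.3i and MYAZ16.1e. Myc310, a subtype of 1 line, came from a transgenic animal with multiple tumours. The LM subtype (LM1, LM2 and LM3) was grown out of whole lungs of FVB/NJ mice whose fat pads had received Myc310 cells. The LM-LM subtype starts with LM1-LM, grown out of lungs after LM1 cells had been injected, and LM2-LM and LM3-LM are described as its biological replicates. The 7 lines from Myc310 onward therefore go back to 1 tumour line and are called the Myc310 lineage here. Lungs were digested whole and no sort is described, so host lung cells could have been carried into the first cultures. All 10 lines were sampled in control medium, and MYAZ16.1e, Myc310, LM1 and LM1-LM also after 6 h in medium without cysteine and cystine. A derivative of MYAZ12.3i labelled NDI1 was sampled in control medium only. The mice injected were young adults, and the ages of the animals whose tumours gave the MYAZ and Myc310 lines are not given in the sources used here.

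Integrins are membrane receptors made of 1 alpha and 1 beta chain, which bind extracellular matrix outside the cell and couple it to actin, or to keratin filaments, inside. The beta1 chain pairs with many alpha chains: alpha2 gives a collagen receptor, alpha3 and alpha6 give laminin receptors, and alpha5 gives the classical fibronectin receptor. The alpha v chain pairs with beta1, beta3, beta5 or beta6 into receptors for ligands that carry the RGD tripeptide, such as vitronectin, fibronectin and latent TGF-beta, and beta4 pairs with alpha6 in hemidesmosomes. In the mammary gland, laminin receptors with alpha3 or alpha6 anchor epithelium to its basement membrane.

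Counts on genes ranged from 19517859 to 29019988 per library, with a median of 22899900. Lines were checked against marker genes. The luminal keratin Krt8 lay between 219 and 1704 CPM (counts scaled to the size of the library) as a mean per line, whereas the epithelial adhesion genes Epcam and Cdh1 did not exceed 0.673 and 0.142 CPM in any of the 10 lines. Markers of possible host cells were uneven. Some defining genes were near 0 in control medium in all 10 lines, with line means of at most 0.0412 CPM for the leukocyte gene Ptprc, 0.167 for the endothelial gene Pecam1, 0.0942 for the fibroblast gene Dcn and 0.0131 for the alveolar gene Sftpc. Other genes of the same lists were not: the collagen gene Col3a1 had line means of 109 CPM in LM3 and 199 CPM in LM3-LM, Pdgfra had 48.3 and Pdgfrb 33.4 CPM in MYAZ12.3i, Cd68 had up to 16.7 CPM (LM2-LM) and Kdr up to 6.26 CPM (MYAZ12.3i). The platelet chemokine gene Pf4 had 41.1 CPM in LM2 and 83.7 CPM in LM2-LM, and at most 2.43 CPM in the other lines in control medium. The summed level of the leukocyte list differed between subtypes, from 28.3 to 53.8 CPM in the MYAZ libraries and from 114 to 296 CPM in those of the Myc310 lineage. That sum was carried by another integrin gene, Itgb2, at 23.5 to 48.3 CPM in MYAZ lines and 107 to 272 CPM in the lineage. The basal and myoepithelial list also separated the subtypes, with sums of 248 to 326 CPM in MYAZ12.3i and MYAZ6.6g, 7.07 to 8.55 CPM in MYAZ16.1e and at most 2.11 CPM in the control libraries of the lineage, carried by the smooth muscle actin gene Acta2. Of its 7 genes 4 were tested, and all 4 were lower in Myc310, LM and LM-LM than in MYAZ. The defining genes Krt5 and Trp63 did not exceed 0.072 and 0.481 CPM in any line mean in control medium. The part of these marker differences in the integrin differences between subtypes was not tested. In RNA from whole cultures, fewer cells that express a gene and less RNA per cell cannot be told apart.

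The lines expressed a common set of laminin and fibronectin receptor genes. To compare genes with each other, CPM were divided by the length of each gene's merged exons, for the 10 lines without the NDI1 derivative. On that scale Itgb1, on chromosome 8 (GRCm38, chr8:128685654-128733200, plus strand), had the highest level of the 10 genes in each line in control medium, with line means of 166 to 213 CPM per kb. Its partners came next, at 68.2 to 96.8 CPM per kb for Itga3 (chr11:95044474-95076801, minus strand) and 36.0 to 71.8 for Itga5 (chr15:103344286-103366763, minus strand). Itgav (chr2:83724397-83806916, plus strand) had 21.2 to 40.6 CPM per kb, and Itga6 (chr2:71745616-71858416, plus strand) had 8.14 to 32.1. The beta partners of alpha v were unequal, with 6.93 to 57.3 CPM per kb for Itgb5 (chr16:33829665-33949338, plus strand) and 0.800 to 8.59 for Itgb3 (chr11:104608000-104670476, plus strand). The remaining genes were scarce. Itga2 (chr13:114833081-114932100, minus strand) had at most 0.604 CPM per kb as a line mean, Itgb4 (chr11:115974709-116008412, plus strand) 0.187 and Itgb6 (chr2:60598292-60722643, minus strand) 0.0291. Small annotated genes lie within Itga5, Itga6, Itgav and Itgb4, and whether reads were counted by strand is not given in the sources used here.

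**Figure D1:**
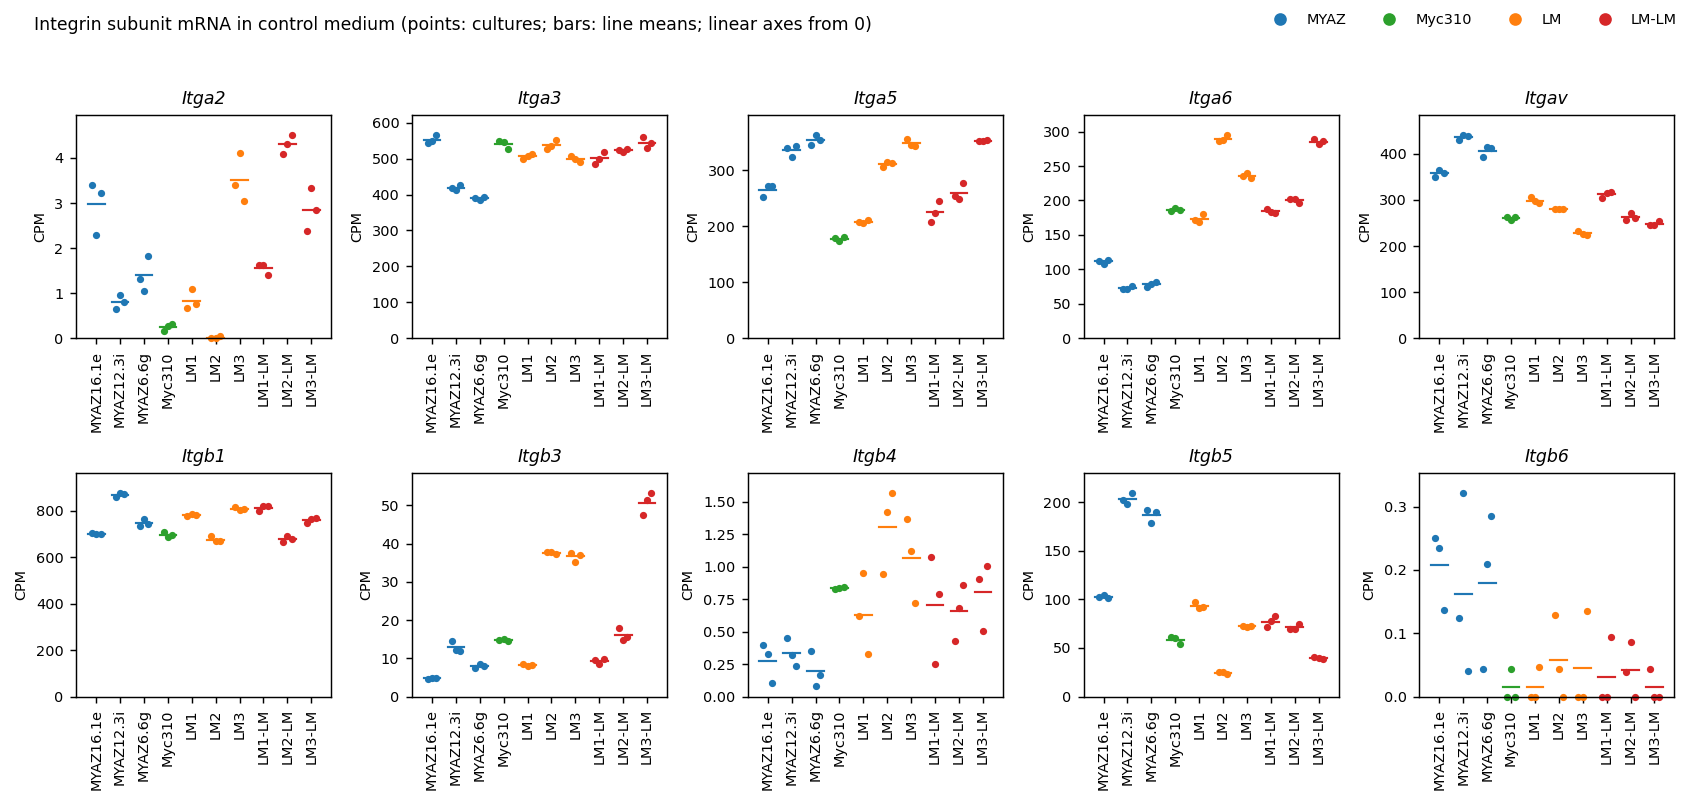
Level of each integrin gene in the control cultures of the 10 lines, in CPM on linear axes that start at 0; each point is a culture, each bar the mean of a line, and colours give the subtype. Itga6 and Itgb4 have higher line means in all 7 lines of the Myc310 lineage than in the 3 MYAZ lines, Itgav and Itgb5 have lower ones, and Itgb3 and Itga2 spread widely inside the lineage.

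The lines of the Myc310 lineage differed from the MYAZ lines in the laminin receptor chain alpha6 and in the alpha v group. Line means of Itga6 and Itgb4, the chains that form the hemidesmosomal receptor, were higher in all 7 lines of the lineage than in all 3 MYAZ lines. Line means of Itgav, Itgb5 and Itgb6 were lower in all 7 lines. Of the 9 members that passed the filter on low counts, 4 were thus separated in 1 direction or the other, as were 34.7% of all 13795 genes that passed it, and Itgb6 did not pass it. The other 5 members overlapped between these 2 sets of lines.

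Itga6 had a lowest, median and highest level of 72.1, 78.7 and 114 CPM in the 9 MYAZ cultures. The 3 Myc310 cultures had 185, 189 and 186 CPM. The 9 LM cultures ran from 169 through a median of 236 to 295 CPM, and the 9 LM-LM cultures from 182 through 202 to 289 CPM. No culture of the lineage overlapped with a MYAZ culture. In the quasi-likelihood test of edgeR, with p adjusted by the Benjamini-Hochberg method over all genes tested, the log2 fold change against MYAZ was 1.08 (SE 0.18, adjusted p = 1.07e-05) for Myc310, 1.41 (SE 0.14, adjusted p = 3.86e-10) for LM and 1.33 (SE 0.14, adjusted p = 1.14e-09) for LM-LM. Over line means ± SD, Itga6 had 87.9 ± 20.6 CPM in MYAZ (n = 3 lines), 233 ± 58.0 CPM in LM (n = 3) and 223 ± 54.3 CPM in LM-LM (n = 3).

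Itgb4, its beta4 partner, was scarce throughout, with 2 to 11 counts in the MYAZ cultures, 18 to 21 in Myc310, 7 to 36 in LM and 6 to 25 in LM-LM. The culture ranges of MYAZ and of the LM and LM-LM subtypes overlapped, although the line means did not. The log2 fold changes against MYAZ were 1.61 (SE 0.41) for Myc310, 1.89 (SE 0.32) for LM and 1.39 (SE 0.32) for LM-LM, with adjusted p of 0.00177, 7.92e-06 and 0.000397. Itgb4 passed the filter on low counts in this fit on account of the lineage cultures. MYAZ cultures had at most 0.454 CPM, and in the fit of MYAZ12.3i and NDI1 alone Itgb4 did not pass the filter. These p-values are therefore a description. The intermediate-filament linker gene Plec, which joins beta4 to keratin, had line means of 759 to 1279 CPM, while Col17a1, the transmembrane collagen of hemidesmosomes, did not exceed 0.249 CPM in any line mean.

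Itgav ran from 350.2 through a median of 412 to 440.3 CPM in the MYAZ cultures. It measured 264, 257 and 263 CPM in the Myc310 cultures, 225 to 306 CPM with a median of 281 in LM, and 245 to 317 CPM with a median of 261 in LM-LM. All cultures of the lineage lay under the lowest MYAZ culture. Its log2 fold change against MYAZ was −0.62 (SE 0.10) in Myc310, −0.57 (SE 0.07) in LM and −0.56 (SE 0.07) in LM-LM, with adjusted p of 3.66e-06, 9.88e-09 and 1.31e-08.

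Itgb5, which forms a vitronectin receptor with alpha v, had a wider range. Its lowest, median and highest MYAZ cultures had 102, 190.2 and 209 CPM, with MYAZ16.1e (102 to 104 CPM) well under the other MYAZ lines. In Myc310 it had 61.0, 60.2 and 54.6 CPM, in LM 23.0 to 97.2 CPM with a median of 72.3, and in LM-LM 38.9 to 82.5 CPM with a median of 69.8. No lineage culture reached the lowest MYAZ culture, but LM1, at 97.2, 90.8 and 92.6 CPM, came close to MYAZ16.1e. The log2 fold changes were −1.49 (SE 0.39, adjusted p = 0.00204), −1.38 (SE 0.26, adjusted p = 2.98e-05) and −1.41 (SE 0.26, adjusted p = 2.07e-05) in the same order.

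Itgb6, the epithelial activator of latent TGF-beta with alpha v, was close to the limit of detection. It had 1 to 7 counts in each of the 9 MYAZ cultures and at most 3 in each of the 21 control cultures of the lineage, where a library with 3 counts or fewer is taken to be at the floor. It did not pass the filter on low counts in any model of single cultures and was tested only per line, on summed counts and on line means.

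Itgb3, the beta chain of the classical vitronectin receptor, was higher on average in LM and LM-LM than in MYAZ, with log2 fold changes of 1.70 (SE 0.41, adjusted p = 0.000741) and 1.56 (SE 0.41, adjusted p = 0.00159). The value for Myc310 was 0.79 (SE 0.55, adjusted p = 0.242). These averages hid large differences between lines. LM2 had 37.7, 37.9 and 37.3 CPM, LM3 had 37.6, 35.3 and 37.0 CPM, and LM3-LM had 47.6, 51.4 and 53.2 CPM. LM1, at 8.46, 7.86 and 8.21 CPM, and LM1-LM, at 9.60, 8.39 and 9.84 CPM, lay within the MYAZ range of 4.66 to 14.5 CPM. LM2-LM (17.8, 14.7 and 15.5 CPM) and Myc310 (14.8 ± 0.263 CPM, SD, n = 3 cultures) were just above it or at its upper end. The difference from MYAZ thus rested on 3 of the 7 lines, and without LM3-LM the LM-LM difference fell to 0.54 (adjusted p = 0.192). The same 3 lines had the highest summed luminal keratin and junction markers (2028 to 2464 CPM, against 1016 to 1399.5 CPM in the other lineage lines), and LM3 and LM3-LM had the highest summed fibroblast markers (116 to 218 CPM, mostly Col3a1). Their summed leukocyte markers were also high, at 184 to 296 CPM, against 114 to 132 CPM in LM1, LM1-LM and LM2-LM and 183 to 187 CPM in Myc310. The part of these markers in the Itgb3 difference was not tested.

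Among the remaining beta1 receptors, Itga3 differed little. It had 384 to 565 CPM in MYAZ cultures, 527 to 548 in Myc310, 489 to 552 in LM and 484 to 559 in LM-LM. MYAZ16.1e, at 544 to 565 CPM, overlapped with the lineage, and the other MYAZ lines did not. The log2 fold changes of 0.25 (SE 0.09), 0.18 (SE 0.06) and 0.19 (SE 0.06) passed the threshold, with adjusted p of 0.0216, 0.0149 and 0.0124, but when any replicate number was left out the adjusted p was 0.0531 to 0.11 for Myc310 and 0.0512 to 0.0659 for LM. The call for LM-LM was lost without replicate 1 (adjusted p = 0.066), without LM3-LM, MYAZ12.3i or MYAZ6.6g (adjusted p = 0.0769, 0.11 and 0.219) and with counts summed per line (adjusted p = 0.253). Itga5, the fibronectin receptor chain, was lower in Myc310 than in MYAZ, by a log2 fold change of −0.85 (SE 0.19, adjusted p = 0.000388). Its 3 Myc310 cultures had 179, 173 and 181 CPM against 253 to 363 CPM in MYAZ. In LM and LM-LM its log2 fold changes were −0.13 (SE 0.13, adjusted p = 0.37) and −0.20 (SE 0.13, adjusted p = 0.159). The value for LM-LM passed without LM3-LM (−0.42, adjusted p = 0.00465) and without MYAZ16.1e (−0.32, adjusted p = 0.0404).

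Itgb1 itself stayed within a narrow range of 665 to 876 CPM over the control cultures of the 10 lines. Its differences from MYAZ did not pass the threshold, at −0.15 (SE 0.08, adjusted p = 0.112) for Myc310, −0.03 (SE 0.06, adjusted p = 0.643) for LM and −0.06 (SE 0.06, adjusted p = 0.373) for LM-LM, although that for Myc310 passed without MYAZ16.1e (−0.22, adjusted p = 0.0192). Itga2 was lower in Myc310 than in MYAZ, with 4, 6 and 7 counts against 16 to 95 counts per culture, a log2 fold change of −2.78 (SE 1.07, adjusted p = 0.0307). Leaving out any replicate number raised that adjusted p to between 0.0874 and 0.126. LM and LM-LM differed from MYAZ in Itga2 by −0.23 (SE 0.59, adjusted p = 0.754) and 0.73 (SE 0.58, adjusted p = 0.285). The value for LM rested on LM3, without which it was −2.05 (adjusted p = 0.00533).

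In all, 7 of 9 members tested passed in Myc310 against MYAZ, where 50.9% of the 13795 genes tested did. Of these, 3 were higher in Myc310 (23.8% of genes) and 4 were lower (27.1%). In LM against MYAZ 6 of 9 passed, beside 60.8% of genes, with 4 members higher in LM (30.3% of genes) and 2 lower (30.5%). For LM-LM the count was again 6 of 9, beside 62.8% of genes, with 4 members higher (30.5%) and 2 lower (32.3%). The shares among the members are near the background for LM and LM-LM and above it for Myc310, which was not tested. The median log2 fold change over the members tested was −0.15, −0.03 and 0.19 in the 3 comparisons, beside medians of −0.02, 0.00 and −0.01 over all genes tested.

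These fits treat the 3 cultures of a line, which the design calls technical replicates, as independent samples, so their p-values measure the spread between cultures as much as that between lines. With counts summed per line, the replicate is the line. The LM and LM-LM lines all go back to Myc310, so tests per line still count related sister lines as independent samples. On the summed counts 4 of 10 members differed between LM and MYAZ, where 23.6% of 16017 genes did, and 4 of 10 between LM-LM and MYAZ, where 26.4% did. In both cases these were Itga6 (log2 fold change 1.43, SE 0.26, adjusted p = 0.00549 for LM and 1.35, SE 0.26, adjusted p = 0.00625 for LM-LM), Itgb4 (1.96, adjusted p = 0.00668 and 1.46, adjusted p = 0.0198), Itgav (−0.55, adjusted p = 0.0141 and −0.54, adjusted p = 0.0146) and Itgb6 (−2.13, adjusted p = 0.031 and −2.58, adjusted p = 0.0155). Itgb6 entered this fit on account of the MYAZ lines. No LM or LM-LM culture had more than 3 counts of it, which is at the floor, so its call is a description. Itgb5 came out at −1.36 (SE 0.47, adjusted p = 0.0687) and −1.39 (SE 0.47, adjusted p = 0.0598), and Itgb3 at 1.72 (SE 0.76, adjusted p = 0.137) and 1.59 (SE 0.76, adjusted p = 0.155). Between Myc310, a single line, and MYAZ no member passed in edgeR's test on summed counts, where 8.92% of genes did, although Itga5, Itga6, Itgav, Itgb4 and Itgb6 had unadjusted p under 0.05. In the exact permutation test over line means of log2 CPM, two-sided, 3 lines against 3 cannot go under p = 0.1. Line means that do not overlap always give this limit, so for Itga6, Itgav, Itgb4, Itgb5 and Itgb6 the test restates the separation described above, and the other members had p of 0.2 to 0.9.

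**Figure D2:**
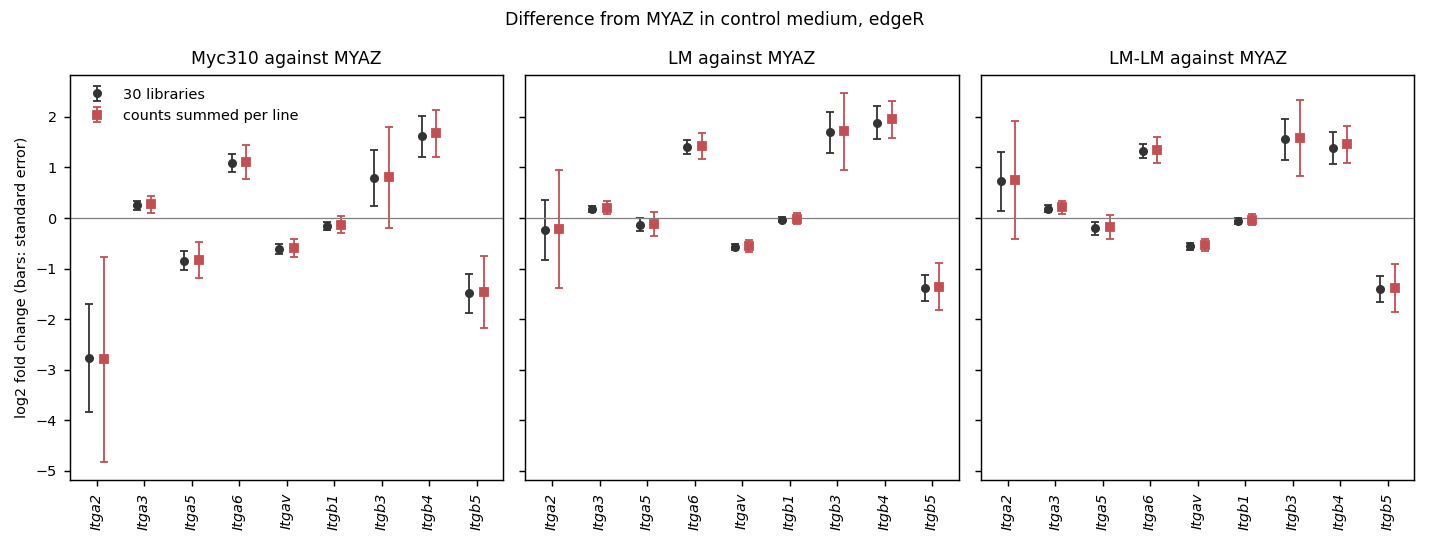
Log2 fold change of each member but Itgb6 in Myc310, LM and LM-LM against MYAZ in control medium, from edgeR's quasi-likelihood fit, with bars for the standard error; dots come from the 30 libraries and squares from counts summed per line. Itga6 and Itgb4 lie above 0 and Itgav and Itgb5 below it in all 3 comparisons, while Itga3 and Itgb1 lie near 0; the widest bars belong to Itga2, followed by Itgb3.

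The balance of the beta partners of alpha v shifted between lines. Per kb of exon, Itgb5 exceeded Itgb3 by 26.3 to 38.8 times in the MYAZ lines. The ratio was 6.59 in Myc310, 19.0 in LM1, 13.8 in LM1-LM and 7.40 in LM2-LM. In LM3 it was 3.28, and in LM2 and LM3-LM the levels were nearly equal, at ratios of 1.09 and 1.31. These ratios describe mRNA per kb and not receptor protein, and they were not tested.

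**Figure D3:**
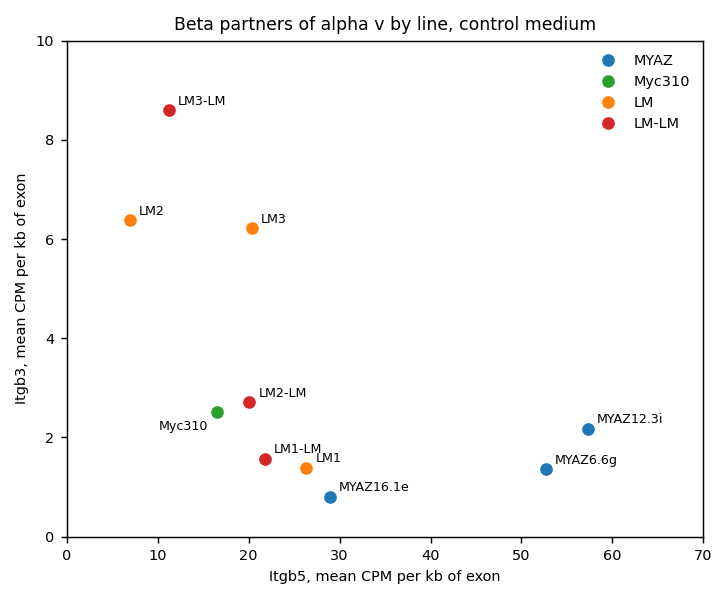
Mean CPM per kb of exon of Itgb5 (horizontal axis) and Itgb3 (vertical axis) in control medium, 1 point per line, coloured by subtype. LM2, LM3 and LM3-LM stand apart with 6.21 to 8.59 CPM per kb of Itgb3, and the MYAZ lines have the highest Itgb5 levels of the panel, from 28.9 to 57.3 CPM per kb.

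Within a subtype, lines differed from each other in most members. In edgeR's quasi-likelihood test on single libraries grouped by line, 8 of 9 members tested differed among the 3 MYAZ lines beyond the spread of cultures. The share over all 13899 genes was 73.7%. The same count of 8 of 9 was found among the LM lines (61.3% of genes) and among the LM-LM lines (67.6% of genes). In each subtype the exception was Itgb4, with adjusted p of 0.543, 0.0936 and 0.802. Sister lines could thus stand far apart. Itga2 was nearly absent from LM2, with 0, 0 and 1 counts, whereas LM3 had 82, 106 and 68 counts and LM2-LM had 106, 101 and 110. Itgb5 differed between LM1, at a mean of 93.5 CPM, and LM2, at 24.6 CPM. Itga6 was highest in LM2 and LM3-LM, at 289 and 285 CPM, and those lines overlapped in their cultures.

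The order of the lines differed from member to member. For Itgb1 the highest line, MYAZ12.3i (869 CPM), exceeded the lowest, LM2 (676 CPM), by 1.29 times, and for Itga3 the ratio between MYAZ16.1e and MYAZ6.6g was 1.42. For Itgb3 the ratio between LM3-LM and MYAZ16.1e was 10.7 and for Itgb5 that between MYAZ12.3i and LM2 was 8.27. With the NDI1 line included, 11 lines give 10 neighbouring pairs in the order of each gene. Cultures of neighbouring lines overlapped in 3 of 10 pairs for Itgav and for Itgb5, in 4 for Itga6, in 5 for Itgb3, in 6 for Itgb1 and in 7 each for Itga2, Itga3 and Itga5. For Itgb4 and Itgb6 all 10 neighbouring pairs overlapped, so that no order among neighbours can be read from them.

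Few members passed between the lung-derived lines and their parental line. Between LM and Myc310 1 of 9 members passed, where 4.94% of genes did. That member was Itga5, with 207 to 357 CPM over the LM cultures against 173 to 181 CPM in Myc310 and a log2 fold change of 0.71 (SE 0.19, adjusted p = 0.0191). LM1 (208, 207 and 211 CPM) was the nearest to Myc310, and LM3 (343 to 357 CPM) the farthest. The call was lost when any replicate number was left out (adjusted p 0.133 to 0.206), without LM2 or LM3 (adjusted p = 0.0625 and 0.113) and with counts summed per line (adjusted p = 1, where 0.0125% of genes passed). Itga2, at 2.55 (SE 1.06, adjusted p = 0.184), had the largest estimate, and passed only when LM2 was left out (3.13, adjusted p = 0.00727). Itgb3 was at 0.91 (SE 0.59, adjusted p = 0.459).

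Between LM-LM and LM, no member passed edgeR's test, where 0.768% of genes did, and none had an unadjusted p under 0.05; DESeq2 also called 0. The estimates for Itga3, Itga5, Itga6, Itgav, Itgb1 and Itgb5 lay between −0.08 and 0.01, with SE of 0.06 to 0.25. Itga2 was at 0.96 (SE 0.59, adjusted p = 0.568), Itgb4 at −0.50 (SE 0.30, adjusted p = 0.556) and Itgb3 at −0.14 (SE 0.40, adjusted p = 0.938). Some of these depended on a line. Without LM3-LM, Itgb3 came out at −1.15 (adjusted p = 0.0327), and without LM3, Itga2 came out at 2.78 (adjusted p = 0.0181).

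Removal of cysteine and cystine for 6 h raised most of the alpha chain members. The 4 lines tested stand for themselves and not for their subtypes, since each subtype was represented by 1 line. In MYAZ16.1e 6 of 9 members tested rose and none fell, where 53.7% of 13400 genes changed, 26.6% upward and 27.1% downward. In Myc310 5 rose and none fell, where 66.8% of genes changed, 32.8% upward and 33.9% downward. In LM1 6 rose and 2 fell, where 71.1% of genes changed, 35.8% upward and 35.3% downward. In LM1-LM 6 rose and 2 fell as well, where 72.4% changed, 36.5% upward and 35.9% downward. The median log2 fold change over the members tested was 0.24, 0.13, 0.26 and 0.33 in the same order, beside 0.00, −0.01, −0.00 and 0.00 over all genes tested. Itga2, Itga3, Itga5 and Itga6 rose in all 4 lines. In each line the share of the members that rose was above the share of all genes that rose, and the share that fell was below it, which with 9 members is a description and not a test.

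Promoters are shown for Itga2 and Itga5, the members with the largest rises in LM1 and LM1-LM, and for Itgb5, which fell in LM1 and LM1-LM. They span 250 bases before to 50 after the start and were taken from RefSeq (GRCm38.p6), which held windows for 7 of the 10 members. Each is printed 5′ to 3′ on the strand of the gene, and capitals mark matches to the GC box GGGCGG on either strand. The windows are chr13:114932051-114932350 (minus strand) for Itga2, chr15:103366742-103367041 (minus strand) for Itga5 and chr16:33829415-33829714 (plus strand) for Itgb5.

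Itga2: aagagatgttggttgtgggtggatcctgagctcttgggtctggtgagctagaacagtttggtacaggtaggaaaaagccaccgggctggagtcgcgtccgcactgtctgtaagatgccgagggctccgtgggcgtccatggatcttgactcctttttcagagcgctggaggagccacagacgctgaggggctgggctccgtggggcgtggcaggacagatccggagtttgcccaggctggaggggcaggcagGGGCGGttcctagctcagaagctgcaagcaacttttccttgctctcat

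Itga5: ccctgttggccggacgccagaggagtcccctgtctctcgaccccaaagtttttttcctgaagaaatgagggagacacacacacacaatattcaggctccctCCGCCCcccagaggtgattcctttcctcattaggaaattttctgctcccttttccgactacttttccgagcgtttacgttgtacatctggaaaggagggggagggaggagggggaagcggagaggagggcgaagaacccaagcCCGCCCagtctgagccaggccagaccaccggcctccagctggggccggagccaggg

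Itgb5: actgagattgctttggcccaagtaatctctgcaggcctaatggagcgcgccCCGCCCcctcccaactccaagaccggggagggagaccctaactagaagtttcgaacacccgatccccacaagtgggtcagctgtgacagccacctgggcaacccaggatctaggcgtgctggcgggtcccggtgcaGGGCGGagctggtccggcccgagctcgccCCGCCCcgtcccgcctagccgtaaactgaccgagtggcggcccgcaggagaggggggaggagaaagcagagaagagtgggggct

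The GC box occurred once in the window of Itga2, in 2 places for Itga5 and in 3 for Itgb5, and 35.7% of 32851 promoter windows of the same length hold at least 1 match. The AP-1 motif TGANTCA (7.81% of windows), the cAMP response element TGACGTCA (1.79%), the ATF4 composite element TGATGNAA (3.97%) and the E-box CACGTG (7.15%) were searched on both strands as well, and none of them has a match in these 3 windows. In the windows of the other members they had 1 match, to the AP-1 motif in 1 of the 2 windows of Itga3. No match overlapped with one to another motif. Motif matches are descriptions of the sequence and were not linked to the changes below by a test.

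Itga2, the collagen receptor chain, had the largest response of the members in all 4 lines. In MYAZ16.1e it went from 3.41, 2.30 and 3.23 CPM to 9.58, 10.1 and 11.1 CPM. In Myc310 it went from 0.158, 0.264 and 0.327 to 1.63, 1.45 and 1.67 CPM, and in LM1 from 0.670, 1.08 and 0.751 to 9.52, 8.27 and 8.05 CPM. In LM1-LM it went from 1.64, 1.62 and 1.40 to 11.8, 9.33 and 9.97 CPM. Deprived and control cultures did not overlap in any line, a separation shown by 58.9%, 69.4%, 73.4% and 74% of genes in the same order of lines. The log2 fold changes were 1.77 (SE 0.14), 2.65 (SE 0.29), 3.38 (SE 0.18) and 2.78 (SE 0.16), with adjusted p of 8.21e-12, 3.05e-09, 1.56e-16 and 5.52e-16. Under deprivation MYAZ16.1e, LM1 and LM1-LM reached similar levels, and Myc310 stayed lower. The rise exceeded that of MYAZ16.1e by 1.61 on the log2 scale in LM1 (SE 0.25, adjusted p = 2.12e-06) and by 1.00 in LM1-LM (SE 0.22, adjusted p = 0.000288). In Myc310, where control counts were 4 to 7, the excess of 0.88 (SE 0.35, adjusted p = 0.0464) did not pass under DESeq2 (adjusted p = 0.0753), with no filter on low counts (0.0959), without replicate 3 (0.102) or without replicate 1, when it fell to 0.46 (adjusted p = 0.435).

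Itga5 rose in each line and in an order of size that ran MYAZ16.1e, Myc310, LM1 and LM1-LM. Its cultures went from 253, 272 and 272 to 324, 311 and 312 CPM in MYAZ16.1e, and from 179, 173 and 181 to 246, 250.2 and 274 CPM in Myc310. They went from 208, 207 and 211 to 317, 329 and 342 CPM in LM1, and from 207, 225 and 245 to 368, 377 and 367 CPM in LM1-LM. All deprived cultures were above all control cultures of their line. The log2 fold changes were 0.24 (SE 0.04, adjusted p = 1.5e-05), 0.52 (SE 0.04, adjusted p = 7.85e-12), 0.69 (SE 0.04, adjusted p = 4.29e-15) and 0.75 (SE 0.04, adjusted p = 3.53e-16). The response of MYAZ16.1e was smaller than that of Myc310 by 0.28 (SE 0.06, adjusted p = 0.000463), than that of LM1 by 0.45 (SE 0.06, adjusted p = 1.87e-07) and than that of LM1-LM by 0.51 (SE 0.06, adjusted p = 1.35e-08). The difference between Myc310, LM1 and LM1-LM was not tested.

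**Figure D4:**
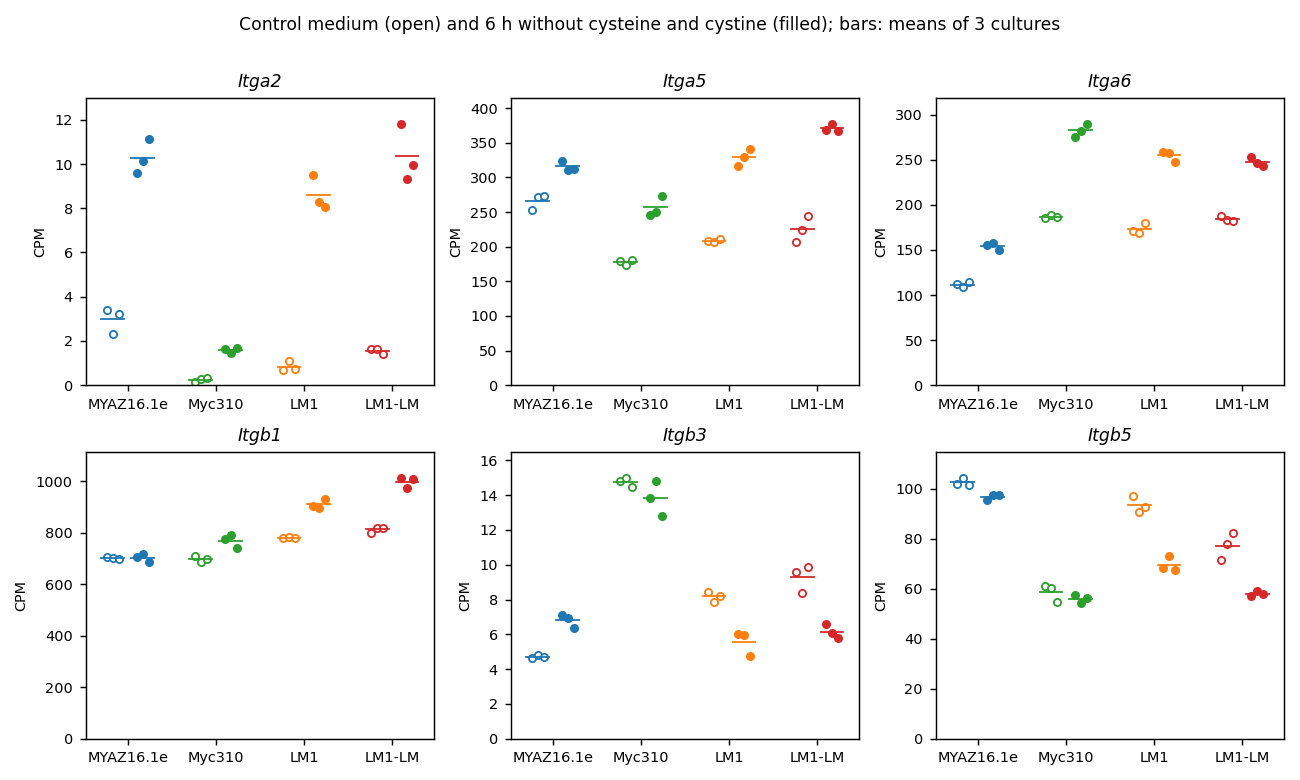
CPM of 6 members on linear axes that start at 0, for the 4 lines that were also deprived of cysteine and cystine for 6 h; open points are control cultures, filled points deprived ones, and bars are means of 3 cultures. Itga2 separates the media in every line, and Itgb3 goes up in MYAZ16.1e and down in LM1 and LM1-LM.

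The laminin receptor chains also rose. Itga6 went from 112, 108 and 114 to 156, 158 and 150.4 CPM in MYAZ16.1e and from 171, 169 and 179.9 to 259, 258 and 248 CPM in LM1, with no overlap between media. Its log2 fold changes were 0.46, 0.58, 0.59 and 0.47 (SE 0.03 each) for MYAZ16.1e, Myc310, LM1 and then LM1-LM, with adjusted p of 4.88e-14, 1.12e-17, 7.98e-18 and 2.06e-15. Itga3 went from 544, 548 and 565 to 623, 621 and 633 CPM in MYAZ16.1e and from 499, 506 and 514 to 621, 639.6 and 654 CPM in LM1, again with no overlap. Its log2 fold changes were 0.17, 0.35, 0.37 and 0.37 (SE 0.03 each), with adjusted p of 1.9e-06, 5.2e-13, 1.51e-13 and 9.94e-14. The rise of Itga3 in MYAZ16.1e was smaller than that in each of the 3 other lines, by 0.18 (adjusted p = 0.00024), 0.20 (adjusted p = 5.08e-05) and 0.20 (adjusted p = 3.36e-05).

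Itgb1, the shared beta chain, stayed at 706, 701 and 698 CPM in control and 705, 719 and 686 CPM in deprived MYAZ16.1e cultures (log2 fold change −0.00, SE 0.02, adjusted p = 0.954). It rose from 708, 687 and 698 to 775, 791 and 741 CPM in Myc310 and from 779, 785 and 781 to 905, 896 and 930.4 CPM in LM1. In LM1-LM it rose from 801, 819.8 and 820.1 to 1014, 973 and 1008 CPM. The media overlapped in MYAZ16.1e and in none of the other lines. The log2 fold changes of 0.13, 0.26 and 0.33 (SE 0.02 each, adjusted p = 1.99e-05, 3.93e-11 and 7.89e-14) each exceeded that of MYAZ16.1e, with adjusted p of 0.00219, 1.01e-07 and 5.38e-10.

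The alpha v group responded in a mixed way. Itgav rose by small amounts, with log2 fold changes of 0.11 (SE 0.03, adjusted p = 0.000953) in MYAZ16.1e, 0.14 (SE 0.03, adjusted p = 3.38e-05) in LM1 and 0.21 (SE 0.03, adjusted p = 2.95e-08) in LM1-LM. The call in MYAZ16.1e was lost without replicate 1, when the value fell to 0.0606 (adjusted p = 0.103). In Myc310 its change was 0.01 (SE 0.03, adjusted p = 0.691), with 264, 257 and 263 CPM in control and 264, 266 and 268 CPM in deprived cultures. Itgb5 fell in LM1, from 97.2, 90.8 and 92.6 to 68.4, 73.1 and 67.5 CPM, and in LM1-LM, from 71.6, 77.7 and 82.5 to 56.9, 59.3 and 58.0 CPM. Its log2 fold changes there were −0.39 and −0.37 (SE 0.04 and 0.05, adjusted p = 3.86e-09 and 1.26e-08). In MYAZ16.1e and Myc310 they were −0.09 (adjusted p = 0.0742) and −0.08 (adjusted p = 0.141), but the first passed with no filter on low counts (−0.0997, adjusted p = 0.0444) and the second without replicate 3 (−0.13, adjusted p = 0.0372). The interaction term against MYAZ16.1e was −0.30 for LM1 (adjusted p = 0.000124) and −0.28 for LM1-LM (adjusted p = 0.000241).

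Itgb3 moved in opposite directions in different lines. In MYAZ16.1e it rose from 4.66, 4.79 and 4.72 to 7.12, 6.95 and 6.38 CPM, a log2 fold change of 0.52 (SE 0.10, adjusted p = 8.58e-05). It fell in LM1 from 8.46, 7.86 and 8.21 to 5.99, 5.94 and 4.78 CPM (−0.52, SE 0.10, adjusted p = 3.62e-05). In LM1-LM it fell from 9.60, 8.39 and 9.84 to 6.57, 6.05 and 5.78 CPM (−0.55, SE 0.10, adjusted p = 7.06e-06). Media did not overlap in these lines. Myc310 had 14.8 ± 0.263 CPM (SD, n = 3) in control and 13.8, 14.8 and 12.8 CPM in deprived cultures, and its media overlapped (−0.11, SE 0.08, adjusted p = 0.251). The interaction term against MYAZ16.1e was −0.63 (SE 0.13, adjusted p = 0.000293) for Myc310, −1.04 (SE 0.14, adjusted p = 4e-07) for LM1 and −1.07 (SE 0.14, adjusted p = 1.29e-07) for LM1-LM. Summed fibroblast markers went the same way as Itgb3 in MYAZ16.1e, LM1 and LM1-LM, but not in Myc310. In MYAZ16.1e they went from 7.46 to 10.1 CPM in control up to 10.7 to 11.8 CPM in deprived cultures. In LM1 they went from 15.1 to 17.7 CPM down to 10.5 to 11.4 CPM. In LM1-LM these sums were 57.7 to 63.6 CPM in control and 26.9 to 29.2 CPM in deprived cultures. In Myc310 they rose without overlap, with 1.70 to 2.16 CPM in control and 2.73 to 2.94 CPM in deprived cultures, while Itgb3 did not rise. Summed luminal markers were higher in deprived than in control cultures of all 4 lines, without overlap, as with 1147 to 1175 CPM in control and 1353 to 1399 CPM in deprived MYAZ16.1e cultures. The part of these markers in the responses was not tested. Itgb4, with 2 to 25 counts per culture in these lines, did not pass in any of them, and Itgb6 was not tested.

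Across these interaction terms, 7 of 9 members differed in response between MYAZ16.1e and Myc310, where 40.3% of genes did. That count fell to 4 without replicate 1 and to 4 without replicate 3, and the Itgav term in it (adjusted p = 0.0469) passed under none of its 7 alternatives. The count was 7 of 9 for LM1, where 52.2% of genes did, and 7 of 9 for LM1-LM, where 54.8% did. The 3 tests share the MYAZ16.1e libraries.

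**Figure D5:**
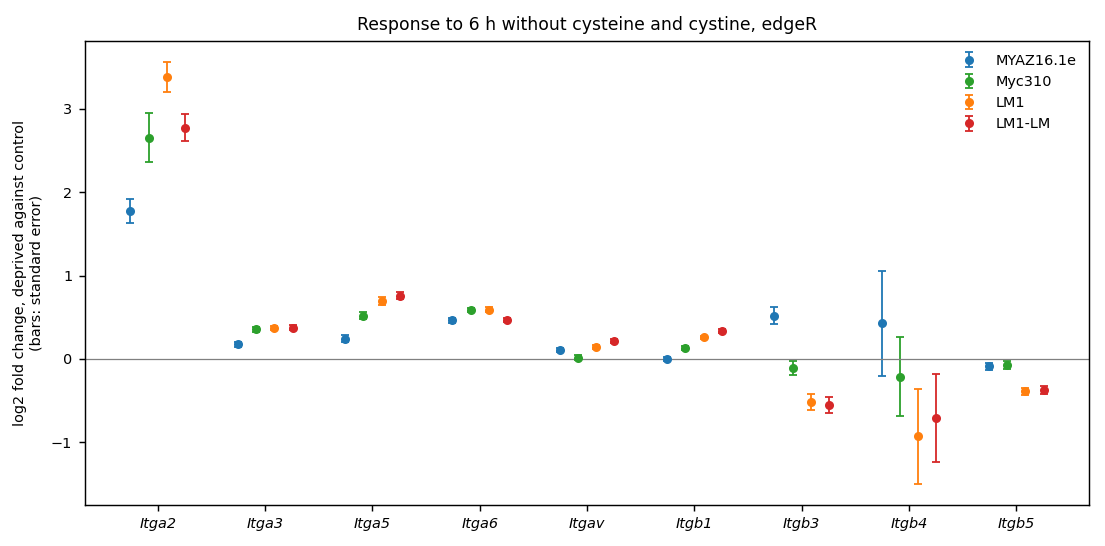
Log2 fold change of each tested member on removal of cysteine and cystine for 6 h, for each of the 4 lines, with bars for the standard error from edgeR's fit. Itga2 lies between 1.77 and 3.38 in the 4 lines, and Itgb3 lies at 0.52 in MYAZ16.1e and at −0.52 and −0.55 in LM1 and LM1-LM.

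In the NDI1 line 5 of 8 members tested differed from MYAZ12.3i, where 17.4% of 12841 genes did (8.14% higher and 9.27% lower). Most of the changes were small. Itga3 fell by 0.13 on the log2 scale (adjusted p = 0.00474), Itgav by 0.12 (adjusted p = 0.0058), Itgb5 by 0.10 (adjusted p = 0.0198) and Itgb1 by 0.09 (adjusted p = 0.0285). Itga2 rose from 0.660, 0.963 and 0.795 to 2.28, 1.03 and 1.90 CPM (1.09, SE 0.32, adjusted p = 0.0307). When a replicate number was left out, 0 to 2 of these members still passed.

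Genes around the integrins were counted by list, beside the shares over all genes of 30.5% higher and 32.3% lower in LM-LM than in MYAZ, and 35.8% up and 35.3% down on deprivation of LM1. Of the 12 fibronectin and RGD ligands listed, 11 were tested, and 3 were higher and 6 lower in LM-LM than in MYAZ. Fn1, which encodes fibronectin, the ligand of alpha5 beta1, had line means of 381 to 1208 CPM in MYAZ and 0.316 to 12.0 CPM in the lineage (LM-LM against MYAZ −7.07, SE 0.56, adjusted p = 6.22e-12). Thbs1, encoding the matricellular thrombospondin 1, was lower by a fitted log2 fold change of −4.93 (SE 0.22, adjusted p = 9.72e-18). The basement membrane linker Nid1, by contrast, had 1.13 to 3.11 CPM in MYAZ lines and 319 to 476 CPM in the lineage (7.69, SE 0.16, adjusted p = 3.94e-26). Deprivation raised Fn1 in LM1 from a mean of 6.08 to 45.0 CPM (2.92, SE 0.08, adjusted p = 3.85e-24), together with Ccn1, Ccn2 and Tnc (2.20, 2.68 and 2.29), and 7 of the 11 ligands tested rose and 4 fell there.

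Of the laminin and collagen genes, 10 were tested between LM-LM and MYAZ, and 1 was higher and 7 were lower. On deprivation of LM1, 7 of the 9 list members tested rose and 1 fell. Lamb3, which encodes a beta chain of laminin, was among those that rose (1.45, SE 0.34, adjusted p = 0.000387). Of 19 focal adhesion adaptor genes tested, 5 were higher and 6 lower in LM-LM than in MYAZ, and 9 rose and 6 fell on deprivation of LM1. The 11 and 15 called compare with 62.8% and 71.1% of all genes. Src, the kinase that signals from clustered integrins, had 141 to 164 CPM in MYAZ and 25.1 to 72.0 CPM in the lineage (LM-LM against MYAZ −1.27, SE 0.12, adjusted p = 2.09e-10). On deprivation it rose in LM1 from a mean of 37.5 to 124 CPM (1.76, SE 0.05, adjusted p = 1.12e-24).

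Among the hemidesmosome and tetraspanin partners all 6 genes tested passed in LM-LM against MYAZ, and 4 of them were higher in LM-LM, where 62.8% of all genes passed and 30.5% were higher. Cd151, the tetraspanin that binds laminin receptors, was lower (−0.68, SE 0.05, adjusted p = 2.94e-12), and so was Cd82 (−2.02, SE 0.34, adjusted p = 8.01e-06). Among the higher genes were Dst (0.34, SE 0.07, adjusted p = 8.3e-05) and Plec (0.32, SE 0.08, adjusted p = 0.000664). On deprivation of LM1 all 6 passed as well, where 71.1% of all genes did, and 2 rose and 4 fell. Of the 16 other integrin subunits, 8 were tested, and 4 were higher and 4 lower in LM-LM. Itga10, a collagen receptor chain, was higher (2.84, SE 0.12, adjusted p = 5.76e-18) and Itga1, also a collagen receptor chain, lower (−2.68, SE 0.61, adjusted p = 0.000388). Itga7, a laminin receptor chain of muscle, rose on deprivation of LM1 from a mean of 1.83 to 12.5 CPM (2.80, SE 0.13, adjusted p = 3.06e-18). Of the 8 tested on deprivation of LM1, 2 rose and 2 fell, the latter being the alpha chain genes Itga1 (−1.61, SE 0.65, adjusted p = 0.0271) and Itga8 (−0.72, SE 0.32, adjusted p = 0.046).

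Patterns over the 15 means of line and medium were compared by Pearson's r of log2 CPM, given as a description because the means share lines, parents and the panel's division into MYAZ and lineage. Among members, Itga6 and Itgb5 ran opposite to each other (r = −0.921), as did Itgav and Itgb4 (r = −0.863), and Itga3 ran with Itga6 (r = 0.77). Of 8963 genes whose log2 CPM averaged 3 or more, those most like Itga6 were Slc25a39 (r = 0.975) and Ipo8 (r = 0.970), and those most like Itgb3 were Arap1 (r = 0.949) and Ctsb (r = 0.899). Itga2 had lower values, with Mcfd2 (r = 0.858) and Bmp2k (r = 0.844).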

How the data were processed

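Per the labels and the study's methods, reads were aligned to GRCm38 with STAR and quantified per gene with RSEM, and the authors deposited whole-number counts per gene without normalization. DESeq2 1.38.3 in R 4.2.2 is named in the submitters' processing notes. Line names are written with points and hyphens where the labels use another separator, and 0 columns were left unmapped.

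Computations used R 4.3.3, edgeR 4.0.16 (TMM, filterByExpr, quasi-likelihood test, Benjamini-Hochberg adjustment over all genes tested, threshold 0.05), limma 3.58.1 and, as an alternative, DESeq2 1.42.0. The subtype fit held 30 control libraries, the deprivation fit 24, the fit of lines 33 and the NDI1 fit 6. CPM were scaled with TMM factors of the 45 libraries together, and a prior count of 2 was added before taking log2. The standard error is the absolute log2 fold change divided by the square root of F. The fits were tested on simulated counts. Positions and exon lengths come from GENCODE mouse release M21.

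The members and the gene lists were chosen with earlier results of these data known. All members are named, and of each list up to 4 genes with the largest changes past the threshold in LM-LM against MYAZ and in deprived LM1, plus genes of interest chosen after their values were seen. A result that needs a withheld item is not reported here. For likeness, the 2 genes with the highest r per member were taken, of which some are named. Alternatives were RLE scaling, no filter on low counts, DESeq2, the replicate number as a block, counts summed per line, other prior counts, and leaving out each replicate number or line. Low counts limit the precision of Itgb4 and Itgb6.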

Additional observations from a re-analysis of the deposited data

Results flagged for a closer look

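The responses to 6 h without cysteine and cystine differed between lines for most members, by the interaction term of edgeR's quasi-likelihood fit against the response of MYAZ16.1e. The response of Itga2 was larger in Myc310 (by 0.88 on the log2 scale), LM1 (1.61) and LM1-LM (1.00). For Itga5 the excess in these lines was 0.28, 0.45 and 0.51, and for Itga3 it was 0.18, 0.20 and 0.20. For Itgb1 it was 0.13, 0.26 and 0.34. Itga6 responded more in Myc310 (0.12) and LM1 (0.13) than in MYAZ16.1e. Itgav responded less in Myc310 (−0.10) and more in LM1-LM (0.10). The term for Itgb3 was −0.63, −1.04 and −1.07 in the 3 lines, and that for Itgb5 was −0.30 in LM1 and −0.28 in LM1-LM. Adjusted p for these 21 terms ran from 5.38e-10 to 0.0469. The terms of Itgb1, Itgb3, Itga3 and Itga5 passed under all alternatives run, as did those of Itgb5 and of Itga2 in LM1 and LM1-LM. The Itgav term of Myc310 passed under none of its 7 alternatives (adjusted p 0.0503 to 0.567), and the Itga2 term of Myc310, the Itgav term of LM1-LM and the Itga6 terms did not pass under some of them. Over 30 sets of 9 control cultures (each member within MYAZ, LM and LM-LM) no culture stood apart from the rest by a gap test within its set.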

How the results depend on the processing

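Under RLE scaling, no filter on low counts, DESeq2 and the replicate block, each count of members called stayed within 1.5 times of the value in the report. Replicate numbers did not pair the cultures (correlation of deviations from group means between −0.134 and 0.126 for equal numbers). With the replicate block 7, 6, 6, 1 and 0 members were called for Myc310, LM and LM-LM against MYAZ, LM against Myc310 and LM-LM against LM, with 6, 5, 8 and 8 on deprivation, 6, 7 and 7 for the response terms, 8 in each subtype of lines and 5 for NDI1. The block ended the call of 1 response term, that of Itgav in Myc310 (adjusted p = 0.0526), which the other alternatives ended as well. With counts summed per line Myc310 was a single sample, so that fit cannot decide which calls against it hold. Leaving out a replicate number or a line gave 5 to 7 members for Myc310 against MYAZ, 0 to 1 for LM against Myc310, 0 to 1 for LM-LM against LM, 4 to 6 for the response of Myc310 and 0 to 2 for NDI1. With a prior count of 0.5 the line means of Itgb6 differed from MYAZ by −2.03 in LM and −2.15 in LM-LM, against −1.10 and −1.18 with 2, a dependence that follows from counts near 0. The cause of the other changes was not tested.

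Estimates that changed sign when a replicate number or line was left out had not passed the threshold with all cultures included. For LM against MYAZ the ranges were −2.05 to 0.41 for Itga2 (past the threshold only without LM3), −0.29 to 0.0633 for Itga5 and −0.10 to 0.0624 for Itgb1, and for LM-LM against MYAZ −0.13 to 0.0355 for Itgb1. For LM against Myc310 they were −0.0227 to 0.15 for Itgav and −0.26 to 0.50 for Itgb5. For LM-LM against LM they were −0.0333 to 0.0409 for Itga3, −0.28 to 0.0898 for Itga5, −0.31 to 0.11 for Itga6, −0.0907 to 0.0799 for Itgav, −0.10 to 0.0458 for Itgb1, −1.15 to 0.26 for Itgb3 and −0.42 to 0.34 for Itgb5. On deprivation of MYAZ16.1e they were −0.0237 to 0.00661 for Itgb1 and −0.26 to 1.22 for Itgb4, and for NDI1 −0.18 to 0.11 for Itgb3. Response terms ran from −1.59 to 0.20 for Itgb4 and −0.0220 to 0.0486 for Itgb5 in Myc310, from −0.00218 to 0.10 for Itgav in LM1 and from −0.0322 to 0.0338 for Itga6 in LM1-LM, the last at −0.0169 under RLE scaling and −0.0164 under DESeq2.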
